A study of Mus musculus with 15 samples.

Results

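Glycolysis breaks glucose down to pyruvate, and the enzymes described here carry most of its steps. Hexokinases trap glucose in the cell as glucose 6-phosphate, phosphofructokinase makes the committed step, aldolase splits the sugar, phosphoglycerate kinase and pyruvate kinase yield ATP, and lactate dehydrogenase turns pyruvate into lactate. In white fat the pathway supplies the glycerol backbone of stored triglyceride as well as carbon for new fatty acids, and macrophages that enter fat also run it. The genes are Hk1, Hk2, Gpi1, Pfkl, Pfkp, Aldoa, Pgk1, Eno1, Pkm and Ldha. Each was taken as the brightest probe set, averaged over the 15 arrays, among those annotated with that 1 gene symbol, and Pkm was also matched under its older name Pkm2. Of the 10 genes, 8 were measured this way, among 19938 named genes in all, and the levels of Gpi1 and Eno1 were not analysed here. Hk1 was chosen by its difference between the genotypes in these same arrays, so its values are given as a description with no test. The other genes are enzymes of the same pathway.

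RNA came from gonadal white adipose tissue of male C57BL6/J mice, with 1 Affymetrix mouse gene array per mouse. The Sfrp5 KO group held 8 mice carrying a premature stop codon (Q27Stop) in Sfrp5, a secreted inhibitor of Wnt signalling, and the wild-type group held 7 mice. All 15 mice were 12 weeks old and were fed high-fat chow for 8 weeks from the age of 4 weeks, so both groups describe diet-fed fat and none describes a lean animal. The labels name no tissue-specific driver for the knockout, and the fat was not separated into cell types. Values are log2 intensities normalised by the authors with RMA, and differences are Sfrp5 KO minus wild type.

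The arrays carried fat: Adipoq, the adipocyte hormone adiponectin, averaged 12.70 ± 0.0862 in Sfrp5 KO fat and 12.52 ± 0.123 in wild-type fat (SD, n = 8 and 7), and stood at the 99.3rd percentile of all probe set levels. Sfrp5 itself ranged between 6.02 and 7.12 in Sfrp5 KO fat and between 7.66 and 8.33 in wild-type fat, with no overlap. Its difference was −1.23 (SE 0.16, adjusted p = 0.0200, limma). Among all 35557 probe sets, 12 passed the adjusted threshold of 0.05, which is 0.0337%, with 10 higher (0.0281%) and 2 lower (0.00562%) in Sfrp5 KO fat. The wild-type arrays held positions 1 to 7 of the deposited table and the Sfrp5 KO arrays 8 to 15. Position in the table therefore runs with genotype, and an effect of one is not separable from the other. Each sample also carries a description number. All Sfrp5 KO replicates except 7 and 8 had numbers below 640, the lowest wild-type number, so for those mice the numbering runs with genotype too. Replicates 7 and 8 had numbers inside the wild-type range. A few arrays stood apart by the markers of other tissues or cells. The mean of 12 epididymis and testis markers was 11.21 on Sfrp5 KO replicate 2, against 6.15 to 7.48 on the other Sfrp5 KO arrays, and reached 7.97 on wild-type replicate 4. The mean of 18 macrophage markers was 9.80 on Sfrp5 KO replicate 8 and 9.29 on wild-type replicate 2, against 8.59 to 9.06 and 8.66 to 8.88 on the other arrays of those genotypes.

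The promoters of Ldha and of Aldoa, Pkm and Pfkp, whose levels varied with Ldha between mice, are shown here. Hypoxia-inducible factor is known to drive several glycolytic genes through a core motif of which ACGTG is a form. The windows run from 250 bases before to 50 bases after the RefSeq transcript start in GRCm38.p6, 5′ to 3′ on the gene's strand, with capitals marking ACGTG or its reverse complement CACGT, including where both overlap. They lie at chr7:46845554-46845853 on the plus strand (Ldha), chr7:126799205-126799504 on the minus strand (Aldoa), chr9:59656977-59657276 on the plus strand (Pkm) and chr13:6648722-6649021 on the minus strand (Pfkp).
Ldha: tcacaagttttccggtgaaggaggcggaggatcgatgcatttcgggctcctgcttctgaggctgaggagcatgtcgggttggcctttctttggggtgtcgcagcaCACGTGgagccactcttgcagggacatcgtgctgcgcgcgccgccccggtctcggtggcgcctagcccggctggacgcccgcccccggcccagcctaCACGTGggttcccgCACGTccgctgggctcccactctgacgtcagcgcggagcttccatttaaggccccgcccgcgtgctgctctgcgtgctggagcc
Aldoa: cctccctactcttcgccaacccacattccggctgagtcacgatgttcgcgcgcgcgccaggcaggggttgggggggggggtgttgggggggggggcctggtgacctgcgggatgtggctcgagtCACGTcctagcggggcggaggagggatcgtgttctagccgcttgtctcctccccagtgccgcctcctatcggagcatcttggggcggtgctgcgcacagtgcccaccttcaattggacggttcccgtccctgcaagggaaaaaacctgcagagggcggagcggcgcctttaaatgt
Pkm: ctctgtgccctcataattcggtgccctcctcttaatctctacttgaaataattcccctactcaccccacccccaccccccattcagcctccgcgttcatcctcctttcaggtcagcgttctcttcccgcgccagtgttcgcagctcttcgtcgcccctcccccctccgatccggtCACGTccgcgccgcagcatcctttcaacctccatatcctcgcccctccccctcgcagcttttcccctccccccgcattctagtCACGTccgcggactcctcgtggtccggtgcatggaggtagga
Pfkp: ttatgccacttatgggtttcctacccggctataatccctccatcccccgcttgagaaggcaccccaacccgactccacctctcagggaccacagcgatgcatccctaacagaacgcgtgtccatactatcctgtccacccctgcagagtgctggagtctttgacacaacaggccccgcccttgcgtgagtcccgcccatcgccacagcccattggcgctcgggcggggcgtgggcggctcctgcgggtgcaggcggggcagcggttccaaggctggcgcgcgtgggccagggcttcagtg
The printed windows held 3 marked stretches for Ldha, 2 for Pkm, 1 for Aldoa and none for Pfkp. RefSeq gives further starts for 3 of these genes: the other Ldha window, the other Pkm window and 1 of the 2 other Aldoa windows held no match, so the printed windows are the ones chosen for holding it, except that of Pfkp, which has a single window. Of the 8 measured genes, 6 had the motif in at least 1 of their windows, against 5886 of 27025 genes in the RefSeq table (21.8%). By windows the counts were 7 of 13 (53.8%) and 6447 of 32851 (19.6%). Neither Pfkl nor Pfkp held it. The windows of Gpi1 and Eno1 held no match either, and they are not in these counts, which cover measured genes only. The Aldoa windows with a match overlap and share the same one, which the count by windows takes more than once. The form GCGTG was not searched, and the printed Pfkp window holds it, so the counts cover ACGTG only. A match describes letters in the window and nothing about binding in this tissue.

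Hk1 encodes the hexokinase found in most tissues. Its brighter probe set ranged between 12.10 and 12.33 in Sfrp5 KO fat (median 12.19) and between 11.75 and 12.07 in wild-type fat (median 11.93). All 8 Sfrp5 KO arrays lay above the highest wild-type array, and the groups did not overlap. Over all probe sets, 77 had groups that did not overlap (0.217%), 51 of them higher in Sfrp5 KO fat (0.143%), and nothing is read from that share for a gene chosen for its difference. The means were 12.20 ± 0.0758 in Sfrp5 KO fat and 11.94 ± 0.120 in wild-type fat (SD, n = 8 and 7), a difference of 0.25 (SE 0.06).

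**Figure D1:**
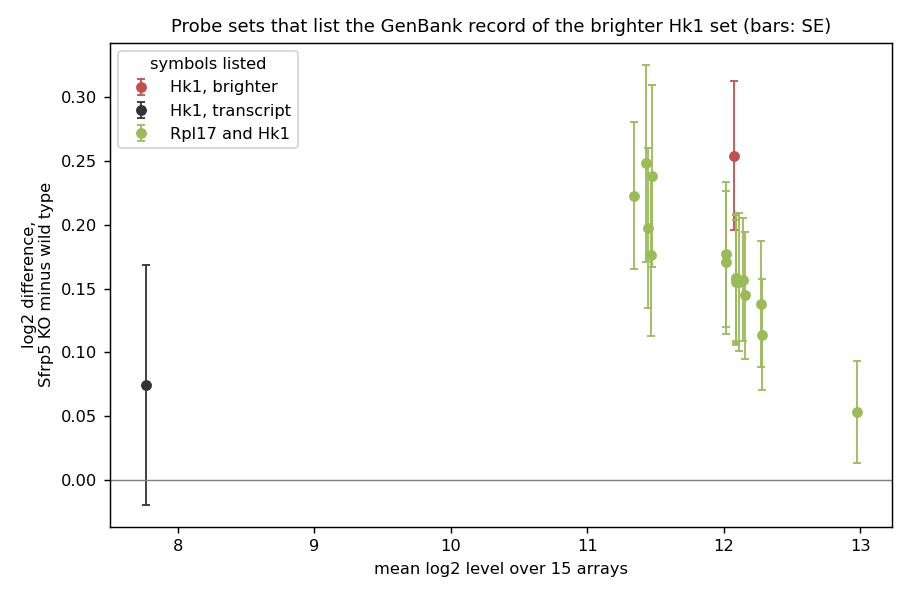
Log2 difference, Sfrp5 KO minus wild type, against the mean log2 level over 15 arrays, 1 point for each of the 18 probe sets that list the GenBank record of the brighter Hk1 set, with bars giving the SE. The brighter Hk1 set (0.25) lies above the other sets near its level, and the transcript set (0.07) is far dimmer than all others.

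What the brighter set measures is uncertain. The platform annotation gives it a single GenBank record, and that record is listed by 18 probe sets, 16 of which also list Rpl17, a ribosomal protein gene. A second Hk1 probe set carries 8 records, 2 of them RefSeq transcripts of Hk1, and the same GenBank record. On that transcript set Hk1 ranged between 7.50 and 7.93 in Sfrp5 KO fat (median 7.83) and between 7.38 and 8.01 in wild-type fat (median 7.66), and the groups overlapped. Its difference was 0.07 (SE 0.09). The 16 probe sets that list Hk1 and Rpl17 were higher in Sfrp5 KO fat in 16 of 16 cases, by 0.05 to 0.25. Their median was 0.16, against a median of −0.01 over all probe sets. They share a GenBank record and the same mice, so they are not independent, and most also list Gm6133. Their mean levels were 11.34 to 12.97, the range in which the brighter Hk1 set (12.1) also lies, while the transcript set averaged 7.77. A further set lists Rpl17 and Gm6133 without Hk1, and was higher by 0.19 (SE 0.06) at a mean level of 11.70. Whether the brighter set measures Hk1, Rpl17, Gm6133 or several of them was not tested. No value below read from it is attributed to hexokinase 1 without that limit. Levels of different probe sets do not compare amounts of RNA.

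After each genotype mean was taken off, the mean of the 16 sets correlated with the brighter Hk1 set at r = 0.36 (rho 0.15, permutation p = 0.127, adjusted 0.191 over 3 relations). Without the 2 arrays farthest from the median of that mean, r was −0.07. With the transcript set the mean correlated at r = 0.39 (rho 0.49, permutation p = 0.0880, adjusted 0.191). The 2 Hk1 sets correlated with each other at r = 0.26 (rho 0.14, permutation p = 0.433). None of the 3 relations passed the adjusted threshold. The genes most like the brighter set over the 15 arrays, by r on genotype-centred values among 19930 genes, were Cd72 (0.84), Nlrc4 (0.83), Lama5 (0.80), Lce3e (0.80) and Osbpl3 (0.79). Those most like the transcript set, chosen after its values were seen, were Brd3 (0.93), Smad1 (0.89), Rps20 (0.86), Eef1b2 (0.83) and Erlin2 (0.78). In both lists these are the highest of 19930 values of r on 15 arrays. They were not tested, and no chance level was computed for them.

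Hk2 encodes the insulin-responsive hexokinase of fat and muscle. It ranged between 8.31 and 8.69 in Sfrp5 KO fat (median 8.49) and between 8.37 and 8.88 in wild-type fat (median 8.63). The groups overlapped, and 1 of 8 Sfrp5 KO arrays lay above the wild-type mean. The difference was −0.15 (SE 0.08, 95% interval −0.31 to 0.01), which did not pass the test (adjusted p = 0.545, limma). The median difference over all named genes was −0.01, and Hk2 had the lowest adjusted p of the 7 tested members. Hk3, a hexokinase of blood cells, differed by 0.04 (SE 0.07).

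None of the 7 members tested was called in limma's fit, against the 0.0337% called among all probe sets (0.0281% higher and 0.00562% lower). Of the 7, 3 were higher and 4 lower in Sfrp5 KO fat, with a median of −0.03. Over the 8 measured members the counts were 4 and 4, with a median of −0.00, against 44.8% of all named genes higher and a median of −0.01. At an unadjusted p under 0.05 none of the 7 was called, against 3544 of 35557 probe sets (9.97%) and 1333 of 19938 named genes. In whole fat a change in the share of a cell type and a change in RNA per cell cannot be told apart.

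**Figure D2:**
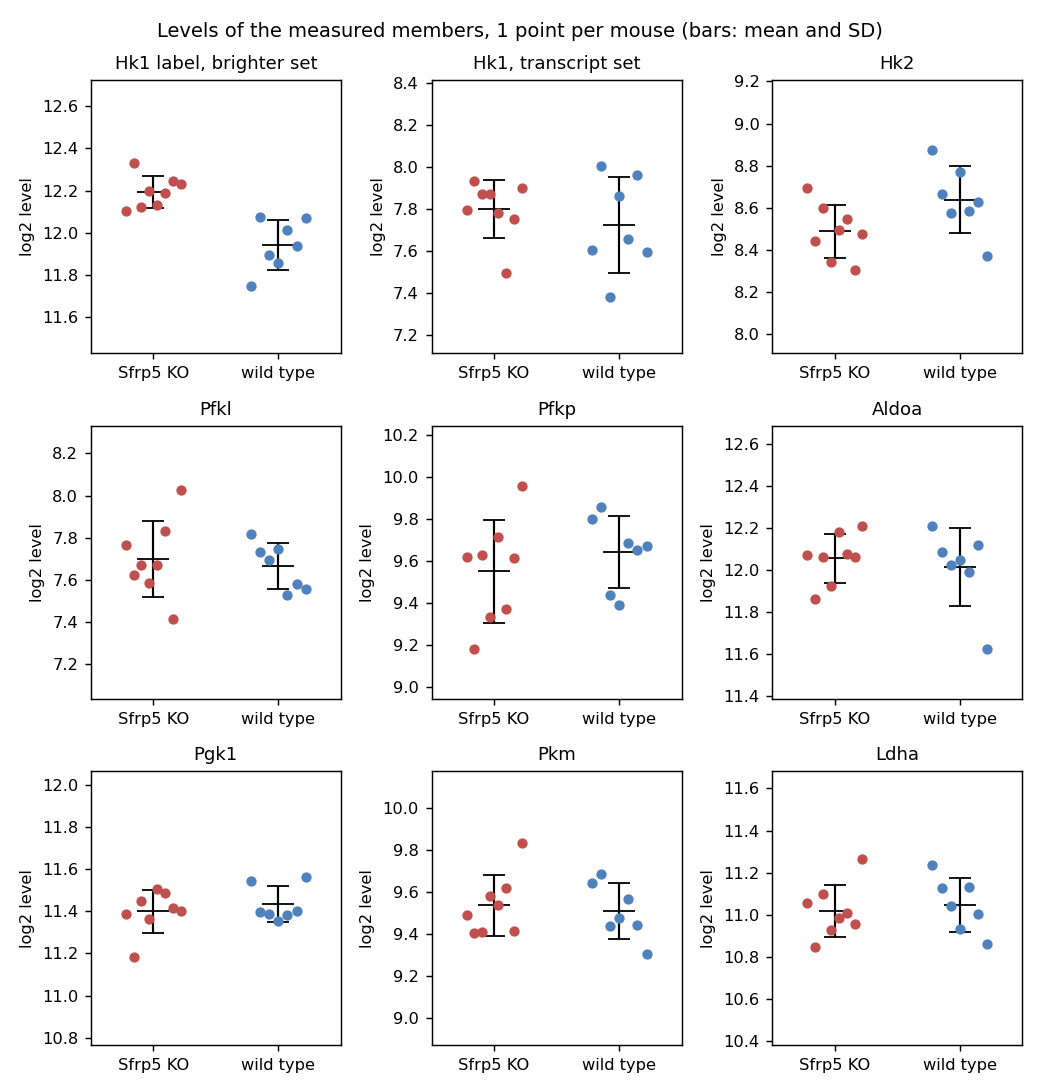
Log2 level on each array, 1 point per mouse, Sfrp5 KO left of wild type, for the brighter Hk1 set, the Hk1 transcript set and the 7 other measured genes, with bars for mean and SD. The genotypes separate on the brighter Hk1 set and overlap in the other panels.

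**Figure D3:**
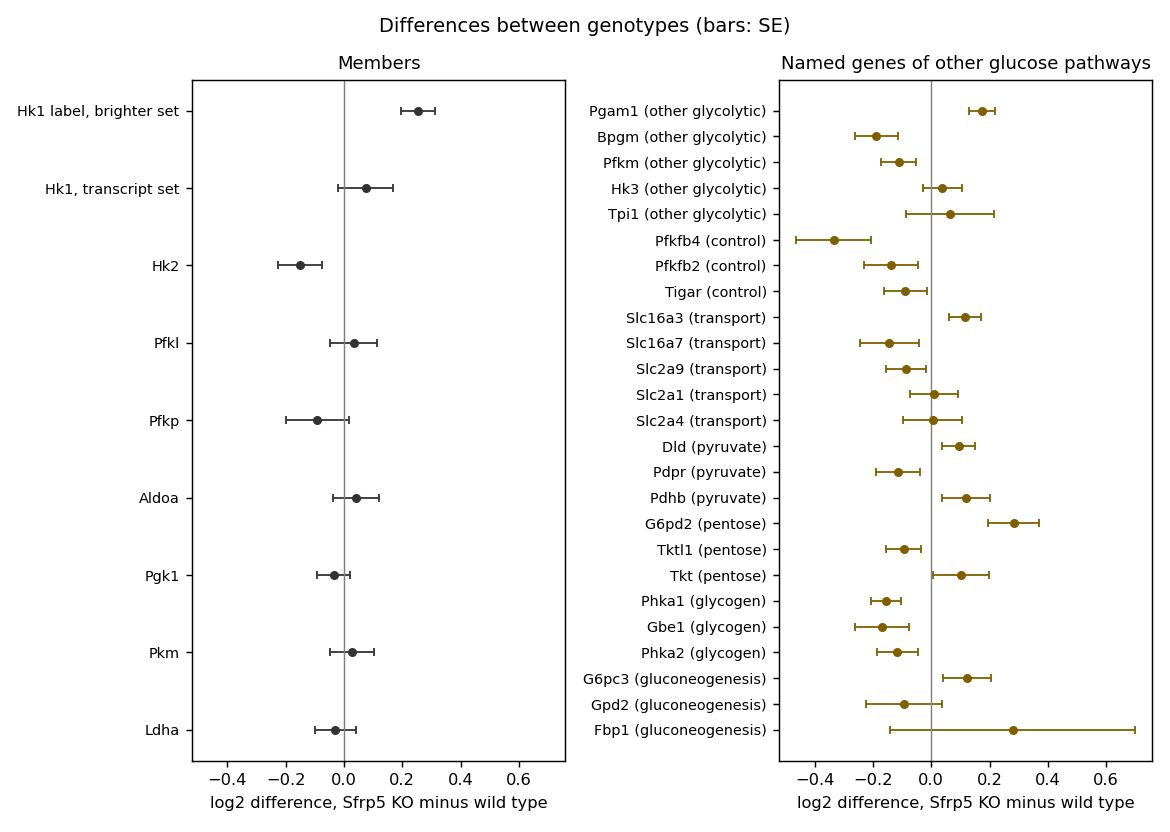
Log2 differences, Sfrp5 KO minus wild type, with bars giving the SE, of the measured members including both Hk1 sets (left) and of the named genes of the other glucose pathways (right). Among the 7 tested members the difference farthest from 0 is that of Hk2, at −0.15.

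Phosphofructokinase was measured through its liver-type subunit Pfkl and its platelet-type subunit Pfkp. Pfkl ranged between 7.41 and 8.03 in Sfrp5 KO fat (median 7.67) and between 7.53 and 7.82 in wild-type fat (median 7.69). The difference was 0.03 (SE 0.08, 95% interval −0.14 to 0.20, adjusted p = 0.935, limma). Pfkp ranged between 9.18 and 9.96 in Sfrp5 KO fat (median 9.62) and between 9.39 and 9.85 in wild-type fat (median 9.67). The wild-type arrays lay inside the wider Sfrp5 KO range, and the difference was −0.09 (SE 0.11, interval −0.32 to 0.14, adjusted p = 0.851). The muscle-type subunit Pfkm differed by −0.11 (SE 0.06, adjusted p = 0.586).

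Aldoa encodes the aldolase expressed most widely. It ranged between 11.86 and 12.21 in Sfrp5 KO fat (median 12.07) and between 11.63 and 12.21 in wild-type fat (median 12.05), where wild-type replicate 7 was the lowest and the other 6 lay at 11.99 or above. The difference was 0.04 (SE 0.08, interval −0.13 to 0.21, adjusted p = 0.916). Pgk1 encodes phosphoglycerate kinase and is X-linked. It ranged between 11.18 and 11.51 in Sfrp5 KO fat (median 11.41) and between 11.36 and 11.57 in wild-type fat (median 11.40), with Sfrp5 KO replicate 2 alone below the lowest wild-type array. The difference was −0.03 (SE 0.06, interval −0.15 to 0.09, adjusted p = 0.895). Pgk1 is covered by 3 probe sets, 2 with identical values, and the remaining set differed by −0.03 (SE 0.05).

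Pkm encodes the muscle and fetal pyruvate kinases, which arise by splicing and which these probe sets do not separate. It ranged between 9.40 and 9.83 in Sfrp5 KO fat (median 9.51) and between 9.30 and 9.69 in wild-type fat (median 9.47), a difference of 0.03 (SE 0.07, interval −0.13 to 0.19, adjusted p = 0.943). A second Pkm set differed by 0.10 (SE 0.08, interval −0.08 to 0.27, adjusted p = 0.775). Ldha encodes the subunit of lactate dehydrogenase that favours lactate formation. It ranged between 10.85 and 11.26 in Sfrp5 KO fat (median 10.995) and between 10.86 and 11.24 in wild-type fat (median 11.04). The difference was −0.03 (SE 0.07, interval −0.18 to 0.12, adjusted p = 0.935). For each of these genes the Sfrp5 KO and wild-type arrays overlapped across most of their range.

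Mice of one genotype differed little in Pgk1, whose SD within genotype stood at the 6.41st percentile of all probe sets. Pfkp varied most among the members, at the 63.1st percentile. The others lay between the 7.87th (the brighter Hk1 set) and the 35.7th (Pfkl) percentile. Pgk1 and the brighter Hk1 set varied least of the 8 across mice.

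The members were compared with each other across mice, after each genotype's mean was taken off, over 28 pairs and 15 arrays. All 21 pairs that did not involve Hk1 had a positive r (median 0.52), and all 7 pairs with the brighter Hk1 set had a negative one. These counts were made after the values were seen, and with Hk1 read from its transcript set 2 of 7 were negative. After quantile normalisation 17 of 21 were positive and 5 of 7 negative. Without the 2 arrays richest in epididymis and testis markers, 18 of 21 were positive. Without Sfrp5 KO replicate 2 alone, 17 of 21 were positive and 5 of 7 negative, and without wild-type replicate 1, 19 and 5. The 21 pairs come from 7 genes on the same arrays, so they are not independent. The share of positive pairs over all genes was not computed. Among the 28, 5 pairs passed an adjusted p of 0.05 by Pearson's r.

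**Figure D4:**
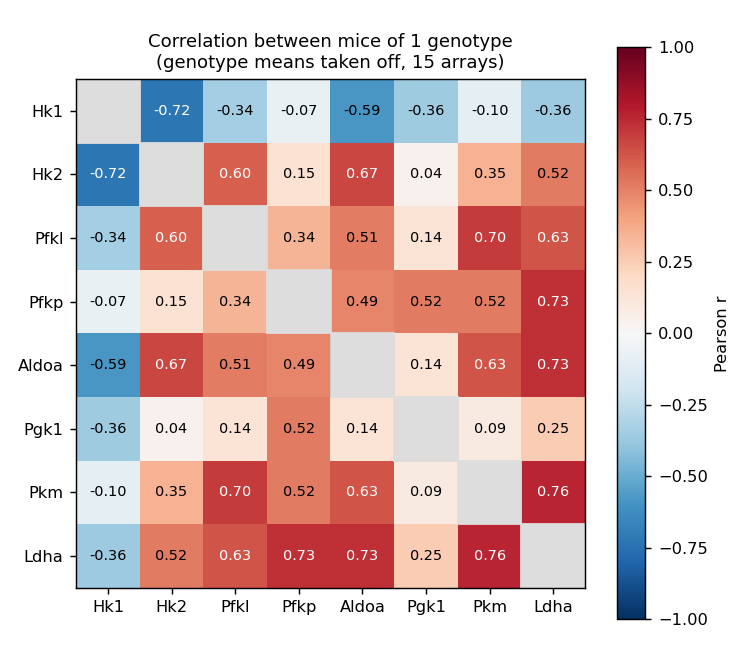
Pearson r of every pair of measured genes over 15 arrays after each genotype mean was taken off, with Hk1 read from its brighter set and colour giving r. The 21 pairs without Hk1 are positive, and the 7 with it are negative.

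Ldha took part in 3 of the 5. Pkm and Ldha, which act on the 2 last steps to lactate, correlated at r = 0.76 (rho 0.68, permutation p = 0.00231, adjusted 0.0270, adjusted p of rho 0.0554). Aldoa and Ldha correlated at r = 0.73 (rho 0.57, permutation p = 0.00179, adjusted 0.0270, of rho 0.0986). Pfkp and Ldha correlated at r = 0.73 (rho 0.72, permutation p = 0.00289, adjusted 0.0270, of rho 0.0489). Leaving out the 2 arrays farthest from the median of the first gene of each pair, not of Ldha, gave 0.61, 0.57 and 0.50 in that order. Within genotype the Pkm and Ldha values were 0.67 in Sfrp5 KO and 0.88 in wild type. Those of Aldoa and Ldha were 0.77 and 0.73, and those of Pfkp and Ldha 0.85 and 0.56, Sfrp5 KO first in each pair of values.

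The other 2 pairs were Pfkl with Pkm (r = 0.70, rho 0.56, permutation p = 0.00601, adjusted 0.0337, of rho 0.0988) and the brighter Hk1 set with Hk2 (r = −0.72, rho −0.69, permutation p = 0.00509, adjusted 0.0337, of rho 0.0554). Without the 2 arrays farthest from the median of Pfkl, or of that Hk1 set, they came to 0.48 and −0.66. The Hk1 and Hk2 relation was −0.65 within Sfrp5 KO mice and −0.77 within wild-type mice, and 0.10 (permutation p = 0.755) when Hk1 was read from its transcript set. By rho, 3 of the 28 pairs passed the adjusted threshold, and of the 5 above only Pfkp with Ldha was among them, beside Hk2 with Pfkl (rho 0.75) and Pfkl with Aldoa (rho 0.71), each at an adjusted permutation p of 0.0489. After quantile normalisation none of the 28 passed, the 5 pairs having adjusted permutation p from 0.0553 to 0.0671. Without the 2 arrays richest in epididymis and testis markers none passed either, with adjusted p for the 5 from 0.0530 to 0.0890. Without the 2 macrophage-rich arrays, 4 of the 5 were lost: Pfkl with Pkm (r = 0.49, adjusted permutation p = 0.201), Pkm with Ldha (r = 0.61, 0.117), Pfkp with Ldha (r = 0.57, 0.110) and Aldoa with Ldha (r = 0.71, 0.0678). The brighter Hk1 set with Hk2 passed there (r = −0.82, adjusted permutation p = 0.0265), as did that set with Aldoa (r = −0.79) and Hk2 with Pfkl (r = 0.80), both at the same adjusted p.

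Each member was also set against the mean of macrophage, adipocyte and mesothelial markers per array, 24 relations in all, and 2 passed. Pfkp varied with the macrophage markers (r = 0.84, rho 0.80, permutation p = 8.00e-05, adjusted 0.00192). That r was 0.89 in Sfrp5 KO and 0.70 in wild-type mice, and 0.80 without Sfrp5 KO replicate 8 and wild-type replicate 2, the 2 macrophage-rich arrays, where the adjusted p was 0.0505. Aldoa varied with the adipocyte markers (r = 0.83, rho 0.70, permutation p = 0.000500, adjusted 0.00600). That r was 0.85 in both genotypes and 0.62 without wild-type replicate 7 and Sfrp5 KO replicate 2, and the adjusted p of rho was 0.0746. Ldha related to both marker means at r = 0.65 for adipocytes and 0.66 for macrophages, with an adjusted p of 0.0747 for each, so neither passed. Pkm related to macrophages at r = 0.61 (adjusted p = 0.127), and at −0.15 without the 2 macrophage-rich arrays.

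**Figure D5:**
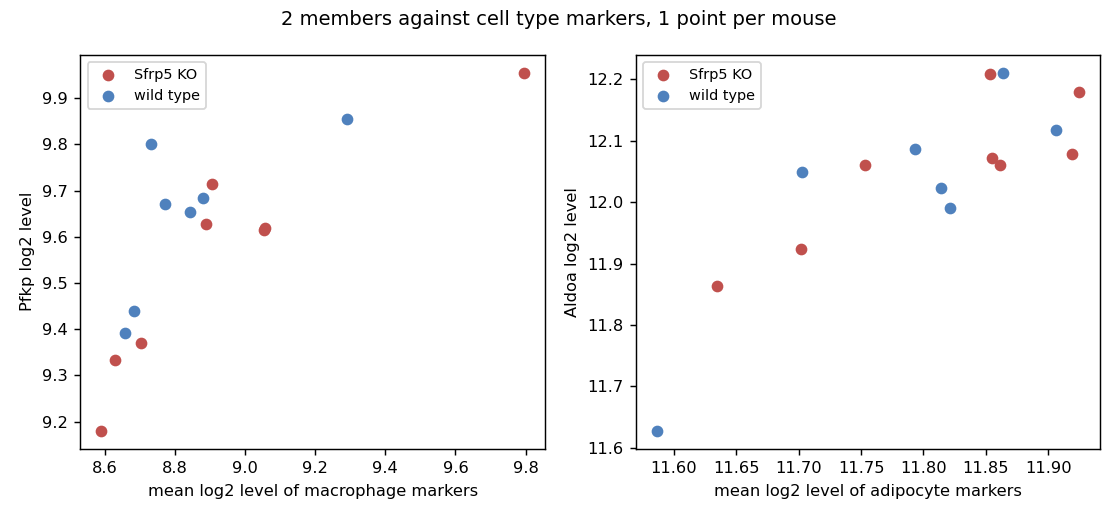
Log2 level of Pfkp against the mean log2 level of the macrophage markers (left) and of Aldoa against that of the adipocyte markers (right), 1 point per mouse, coloured by genotype and not centred. Sfrp5 KO replicate 8 lies at the upper right of the left panel, at 9.80 for the markers, and wild-type replicate 7 at the lower left of the right panel, at 11.63 for Aldoa.

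No marker gene of any list passed limma's test between genotypes. Macrophage markers differed by 0.12, with 17 of 18 genes higher in Sfrp5 KO fat, but by −0.00502 without Sfrp5 KO replicate 8 and by 0.19 without wild-type replicate 2. Adipocyte markers differed by 0.03 (9 of 13 higher), and by −0.00401 without wild-type replicate 7 and 0.05 without Sfrp5 KO replicate 2. Mesothelial markers differed by 0.36 (12 of 12 higher), a difference that no single omitted array moved by over 1.5 times. Neutrophil markers differed by −0.15 (0 of 8 higher), and by −0.09 without wild-type replicate 4. Endothelial markers differed by −0.09 (1 of 12 higher), by −0.15 without wild-type replicate 4 and by −0.05 without Sfrp5 KO replicate 2. Epididymis and testis markers differed by 0.49 (11 of 12 higher), and by −0.09 without Sfrp5 KO replicate 2. Fibroblast (8 of 10 higher), lymphocyte (5 of 9), skeletal muscle (8 of 12) and erythroid (0 of 3) markers differed by less than 0.1 in either direction. The mesothelial mean had a median of 8.56 in Sfrp5 KO fat and 7.91 in wild-type fat. The part these cell markers play in the members' levels was not tested beyond the relations above. The genes most like the mean of the scaled members over the 15 arrays were Slc36a2 (r = 0.93), Cdc37 (0.93), Bscl2 (0.92), Chid1 (0.91) and Plod3 (0.91). They have the highest of 19930 values of r, which were not tested and have no chance level beside them.

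Of the other glucose pathway genes, 95 of 103 listed were measured, 46 higher and 49 lower in Sfrp5 KO fat. None was called by limma, and 5 had an unadjusted p under 0.05, beside 1333 of 19938 named genes. The median difference was −0.00531, beside −0.0124 over all named genes. The genes named from each list include the 3 with the lowest p in this fit. Nothing is read from how far their arrays separate, since they were picked by that fit. In the rest of glycolysis 10 of 16 genes were higher and 6 lower. Pgam1, phosphoglycerate mutase, ranged between 8.59 and 8.73 in Sfrp5 KO fat (median 8.70) and between 8.43 and 8.59 in wild-type fat (median 8.53). The difference was 0.18 (SE 0.04, adjusted p = 0.165, limma), and 7 of 8 Sfrp5 KO arrays lay above the highest wild-type array. Of 3 Pgam1 sets 2 were identical, and the remaining set differed by 0.18 (adjusted p = 0.275). Pgam1 lies on chromosome 19 with Sfrp5, with 14 annotated genes between them. Bpgm, which makes 2,3-bisphosphoglycerate in red cells, differed by −0.19 (SE 0.07, adjusted p = 0.396), and the triose phosphate isomerase Tpi1 by 0.06 (SE 0.15). Gapdh was not analysed here.

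Among 12 regulators of glycolysis, 6 were higher and 6 lower. Pfkfb4, which sets fructose 2,6-bisphosphate, differed by −0.34 (SE 0.13, adjusted p = 0.380), with 1 of 8 Sfrp5 KO arrays above the wild-type mean. Pfkfb2 differed by −0.14 and Tigar, a fructose bisphosphatase, by −0.09. Of 16 genes listed for glucose and lactate transport, 6 were higher and 10 lower. The glucose carriers Slc2a1 and Slc2a4 each differed by 0.01 (SE 0.08 and 0.10), the lactate exporter Slc16a3 by 0.12 (SE 0.05, adjusted p = 0.510), Slc16a7 by −0.14 and Slc2a9 by −0.09. Of 13 pyruvate dehydrogenase genes, 7 were higher and 6 lower, among them Dld (0.09), Pdpr (−0.11) and Pdhb (0.12).

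In the pentose phosphate pathway 4 of 10 genes were higher and 6 lower. G6pd2, a retrogene copy so close to G6pdx that its level is uncertain, differed by 0.28 (SE 0.09, adjusted p = 0.265), Tktl1 by −0.09 and Tkt by 0.10. Of 17 glycogen genes, 6 were higher and 11 lower. Phka1, a subunit of phosphorylase kinase, differed by −0.16 (SE 0.05, adjusted p = 0.307) with 0 of 8 Sfrp5 KO arrays above the wild-type mean, Gbe1 by −0.17 and Phka2 by −0.12. Of 11 genes of gluconeogenesis and glycerol handling, 7 were higher and 4 lower, among them G6pc3 (0.12), Gpd2 (−0.09) and Fbp1 (0.28, SE 0.42). None of the genes named in these lists passed the test. The testis forms Pgk2 and Ldhc were named after their values were seen. Their highest arrays stood at 9.04 and 9.33 in Sfrp5 KO fat and at 8.01 and 8.02 in wild-type fat. Their medians were 5.81 and 6.37 in Sfrp5 KO fat and 5.88 and 6.54 in wild-type fat. The differences were 0.19 (SE 0.64) and 0.15 (SE 0.55). For each gene 2 of 8 Sfrp5 KO arrays lay above the highest wild-type array.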

How the data were processed

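Gene expression was measured in gonadal fat of 8 Sfrp5 KO and 7 wild-type mice. The deposited values are log2 intensities for 35557 probe sets, made by the authors with RMA, per the submitters' processing notes. Those notes also name affy 1.18, limma and Affymetrix Expression Console 1.1.2800.19935, in no stated order. Total RNA was amplified and labelled with biotin, per the labels' protocols. RMA makes array distributions alike (array medians were 6.99 to 7.07), so a shift common to most genes cannot be seen. Intensities carry no read depth, and the number of arrays limits the precision.

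Genes were named from the platform annotation: 21789 probe sets had 1 symbol, 1621 several and 12147 none, and 21698 matched RefSeq names. Genotypes were tested two-sided by limma 3.58.1, run under R 4.3.3 with its lmFit and eBayes steps, with Benjamini-Hochberg adjustment over all probe sets. Sfrp5 was also tested over all 6435 splits of the arrays (exact permutation, two-sided, p = 0.000155, the smallest possible). Correlations used values with the genotype mean removed and 100000 permutations within genotype, adjusted within each family. The named genes are the members, Sfrp5, the 3 lowest p in each of 7 lists, and Hk3, Tpi1, Gapdh, Pgam1, Slc2a1 and Slc2a4 in any case, and an item that is not reported here. The members and lists were chosen with earlier results of these data known. The code was tested on simulated data. Alternatives were quantile normalisation, median centring, a filter on dim probe sets, trend and robust moderation, array weights, a replicate block and other thresholds. Others were omission of each array, or of arrays that stood apart by markers. Sfrp5 KO replicates 7 and 8, whose description numbers lay inside the wild-type range, were also left out, or kept as the only Sfrp5 KO arrays. The other Hk1 probe set, and marker levels without each array, were alternatives added after seeing the data.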

Additional observations from a re-analysis of the deposited data

Results flagged for a closer look

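In 40 combinations of a genotype with a member or marker mean, the array at one end was set against the rest of its group, and chance singles out about 1 in 20. Aldoa was lowest on wild-type replicate 7, at 11.63, against 11.99 to 12.21 on the other wild-type arrays. Pgk1 was lowest on Sfrp5 KO replicate 2, at 11.18, against 11.36 to 11.51 on the other Sfrp5 KO arrays. The transcript set of Hk1 was lowest on Sfrp5 KO replicate 6, at 7.50, against 7.75 to 7.93. The macrophage marker mean was highest on Sfrp5 KO replicate 8, at 9.80, against 8.59 to 9.06, and on wild-type replicate 2, at 9.29, against 8.66 to 8.88. The lymphocyte marker mean was highest on wild-type replicate 5, at 6.66, against 6.39 to 6.49. The endothelial marker mean was lowest on wild-type replicate 4, at 8.85, against 9.20 to 9.37. The epididymis and testis marker mean was highest on Sfrp5 KO replicate 2, at 11.21, against 6.15 to 7.48 on the other Sfrp5 KO arrays. The part these arrays play in the results is given by the values without them.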

How the results depend on the processing

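The 7 tested members and the 7 other lists gave no call at an adjusted p of 0.05 in any of 25 alternative fits. Of all probe sets 12 were called, against 6 after quantile normalisation, 7 after median centring, 26 without dim probe sets, 48 with trend and robust moderation, 25 with array weights, 0 without either the epididymis-rich or the macrophage-rich pair of arrays, 2 without Sfrp5 KO replicates 7 and 8, 0 with those 2 Sfrp5 KO arrays alone, 98 at an adjusted p of 0.1 and 3544 at an unadjusted p under 0.05. Leaving out 1 array gave 0 to 133 (0 without wild-type replicate 2, 3, 4 or 5 or Sfrp5 KO replicate 2, 5 or 8, 133 without Sfrp5 KO replicate 1). The Sfrp5 difference was −1.29 to −1.13 without 1 array, missing the threshold without wild-type replicate 2, 3, 4 or 5 or Sfrp5 KO replicate 2, 5 or 8 (adjusted p over all 15 omissions 0.00413 to 0.0670, limma). It was −1.17 and −1.21 without the epididymis-rich and macrophage-rich pairs, and −0.93 with Sfrp5 KO replicates 7 and 8 alone, past the threshold in none of the last 3. Replicate numbers did not pair the mice (same-number correlations −0.12 to 0.25, and no array was closest to its own number). With the replicate block, in which Sfrp5 KO replicate 8 drops out, no probe set was called, and Sfrp5 differed by −1.28 (adjusted p = 0.3001, limma). Member pairs past the threshold numbered 5, against 3 by rho, 0 after quantile normalisation, 0 and 3 without the epididymis-rich and macrophage-rich pairs (1 of those 3 being among the 5), and 0 to 9 without 1 array (0 without wild-type replicate 1 or Sfrp5 KO replicate 2). Relations with markers numbered 2, against 1 by rho and 1 without the macrophage-rich pair. Differences near 0 changed sign: Aldoa −0.030 (quantile normalisation), Slc2a4 −0.00196 (median centring), −0.00162 (array weights), −0.022 (macrophage-rich pair left out), −0.036 (Sfrp5 KO replicates 7 and 8 alone) and −0.00407 (replicate block), Pfkl −0.00179 and −0.013, Slc2a1 −0.00741 and −0.00996 (macrophage-rich pair left out and replicate block), Pkm −0.015 and Tpi1 −0.000211 (replicate block). Without Sfrp5 KO replicates 7 and 8, Slc2a1 was −0.036, Pkm −0.00187, Hk3 −0.015, Tpi1 −0.053 and Gpd2 0.064. With those 2 alone, Pfkp was 0.14, Ldha 0.063, Dld −0.030 and Pdhb −0.000266. Without 1 array, Ldha ranged from −0.064 to 0.00249, Aldoa from −0.024 to 0.074, Pkm from −0.015 to 0.057, Pfkl from −0.013 to 0.075, Slc2a1 from −0.032 to 0.048, Slc2a4 from −0.050 to 0.057 and Tpi1 from −0.000211 to 0.14. The Hk1 difference was 0.07 by the transcript set. The causes were not tested. Signal over background was not analysed here.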
